A study of Mus musculus with 12 samples.

Results

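The small-molecule methyltransferases are enzymes that move the methyl group of S-adenosylmethionine (SAM) onto small acceptors rather than onto proteins, DNA or RNA. The set was chosen by name as Nnmt, Gamt, Tpmt, Hnmt, As3mt, Coq3 and Coq5, matched by Ensembl gene identifier to the rows of the expression table. Of these 7 genes, 5 (Nnmt, Gamt, Tpmt, Coq3 and Coq5) were among the 12591 genes of the table. Hnmt (chromosome 2, 23892668 to 23939872) and As3mt (chromosome 19, 46695865 to 46729538; both on GRCm39) had no row there and were not analysed here, and the authors had dropped every gene that fell short of 1 CPM in any library, so the 5 genes described are those that passed that filter.

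The cells were immortalized mouse embryonic fibroblasts of strain C57 PER2::LUC, from heterozygous knock-in mice whose circadian clock protein PER2 carries a luciferase tag, and all 4 groups carry this allele. Confluent dishes received, for 24 h, medium with 3.3 mM HCl alone (CTL), or the same HCl with 10 μM deazaneplanocin A (DZ), with 1 mM adenine (Adenine) or with 1 mM SAM (SAM). Polyadenylated RNA of 3 dishes per group was sequenced, giving 12 libraries, to ask how each treatment alters gene expression relative to CTL. Nothing in the labels says that dishes of a group came from separate cell preparations, so p-values measure only the spread between dishes. In these bulk samples, fewer cells of a type and less RNA per cell cannot be told apart.

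Every reaction of this class leaves S-adenosylhomocysteine (SAH), which the enzyme AHCY hydrolyses and which inhibits most methyltransferases when it builds up. DZ is an inhibitor of AHCY. Nnmt methylates nicotinamide, the vitamin from which cells rebuild NAD, and Gamt methylates guanidinoacetate to creatine, which stores high-energy phosphate. Tpmt methylates the sulfur of thiopurine drugs such as mercaptopurine, Hnmt inactivates histamine and As3mt methylates inorganic arsenic. Coq3 and Coq5 work in mitochondria on coenzyme Q, the electron carrier of the respiratory chain, Coq3 on oxygen atoms and Coq5 on a ring carbon.

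In these cells Gamt and Tpmt were more abundant, and Nnmt and Coq5 less abundant, under both adenine and SAM than in CTL. No member passed the test under DZ, although every DZ library of Tpmt lay above every CTL library. Of all genes, 61.6% passed under adenine, 69.3% under SAM and 45.9% under DZ, so such calls do not set the members apart. Gamt was 2.24-fold higher under adenine and 2.90-fold higher under SAM. Nnmt was 1.62-fold lower under adenine and 2.04-fold lower under SAM. Coq3 did not pass the test in any of the comparisons made.

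Promoter windows from RefSeq (mouse build GRCm38.p6), from 250 bases before to 50 after a start site, were on hand for 5 of the 7 members. They are shown for Gamt and Tpmt, the members that were higher under adenine and SAM, and for Coq3, which did not pass the test. No window was on hand for Nnmt or Coq5, the members that were lower, so none of a fallen member can be set beside these. Capitals mark each GC box, the letters GGGCGG or, on the other strand, CCGCCC, to which factors of the SP family bind. The windows run 5′ to 3′ in the direction of transcription and lie at chr10:80260963-80261262 (minus strand) for Gamt, chr13:47043168-47043467 (minus strand) for Tpmt and chr4:21879396-21879695 (plus strand) for Coq3, whose RefSeq entries have a second window further downstream.
Gamt: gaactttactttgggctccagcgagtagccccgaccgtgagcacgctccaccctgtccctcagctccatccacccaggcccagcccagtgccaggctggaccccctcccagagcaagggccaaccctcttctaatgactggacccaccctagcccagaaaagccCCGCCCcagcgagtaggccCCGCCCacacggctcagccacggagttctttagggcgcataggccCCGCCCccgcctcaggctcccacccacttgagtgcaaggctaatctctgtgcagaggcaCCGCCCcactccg
Tpmt: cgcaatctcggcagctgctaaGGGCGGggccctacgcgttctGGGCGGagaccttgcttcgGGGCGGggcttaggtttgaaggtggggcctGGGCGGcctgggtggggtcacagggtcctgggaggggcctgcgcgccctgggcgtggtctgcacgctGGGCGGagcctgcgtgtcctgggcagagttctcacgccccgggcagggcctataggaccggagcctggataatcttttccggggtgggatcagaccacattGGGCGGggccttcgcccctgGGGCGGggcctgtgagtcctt
Coq3: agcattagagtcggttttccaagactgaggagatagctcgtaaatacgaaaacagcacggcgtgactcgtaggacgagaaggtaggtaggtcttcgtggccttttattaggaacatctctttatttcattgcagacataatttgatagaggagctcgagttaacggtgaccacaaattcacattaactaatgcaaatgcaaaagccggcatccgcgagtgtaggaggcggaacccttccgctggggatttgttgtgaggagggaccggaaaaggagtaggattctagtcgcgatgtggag
The Gamt window held 4 GC boxes and the Tpmt window 7. Of all 32851 windows, 5.49% held at least 4 GC boxes, 0.627% held at least 7, and 35.7% held any. The Coq3 window shown held none and its second window held 1. G and C made up 66% of the Gamt window, 69.7% of the Tpmt window and 47.3% of the Coq3 window shown. The second Coq3 window stood at 66.7%, above that of Gamt, and the median over all windows was 52.7%. The Tpmt window also held 1 CCAAT box (CCAAT or ATTGG, found in 37.4% of windows), which the windows of Gamt and Coq3 did not. None of these windows held the TATA letters TATAAA, the E-box CACGTG that clock factors bind or the cAMP response element TGACGTCA, on either strand, which were found in 13.6%, 7.15% and 1.79% of all windows. These matches describe letters in the window and were not tested against expression.

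The deposited values are log2 CPM, the logarithm of the reads of a gene relative to the normalized size of its library. Depth was 45649534 to 56789090 reads on the listed genes per library, and the members drew on 124 reads (Nnmt in SAM replicates 2 and 3) to 1399 reads (Coq5 in DZ replicate 1). Set against counting noise, where the chi-square over its degrees of freedom is near 1, pairs of replicates stood at 4.76 to 7.07, apart from the pairs of SAM replicate 3 with SAM replicates 1 (19.1) and 2 (15.7). Calls that changed without that library are named beside the results. Of 12 fibroblast markers, 9 were in the table, with a summed level of 21990 to 22431 CPM in CTL, 27815 to 28401 CPM in DZ, 24661 to 26943 CPM in Adenine and 16381 to 17716 CPM in SAM, and Dcn, Lum and Fap had no row. Against CTL, 8 of these 9 rose and 1 fell under SAM (median log2 fold change 0.43), and the one that fell was Fn1, the extracellular matrix protein fibronectin (-1.58), while Pdgfra rose by 2.55, S100a4 by 1.70 and Col3a1 by 1.31. Under adenine 6 rose and 1 fell (Fn1, -0.43), and under DZ 7 rose and 1 fell (Vim, -0.39). Of all genes, 33.7% were called higher and 35.7% lower under SAM. These shares were 30.6% and 31% under adenine, and 22.6% and 23.4% under DZ. None of 6 hepatocyte markers and none of 8 epithelial and endothelial markers had a row. Of 12 leukocyte and mast cell markers only Cd68, which encodes a lysosomal protein, had a row, and the pan-leukocyte marker Ptprc had none. Cd68 stood at 2.99 to 3.96 CPM in CTL, 2.70 to 3.75 CPM in DZ, 10.8 to 12.3 CPM in Adenine and 15.5 to 17.6 CPM in SAM. It thus moved with Gamt below, and the part of any other cell type in these results was not tested.

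**Figure D1:**
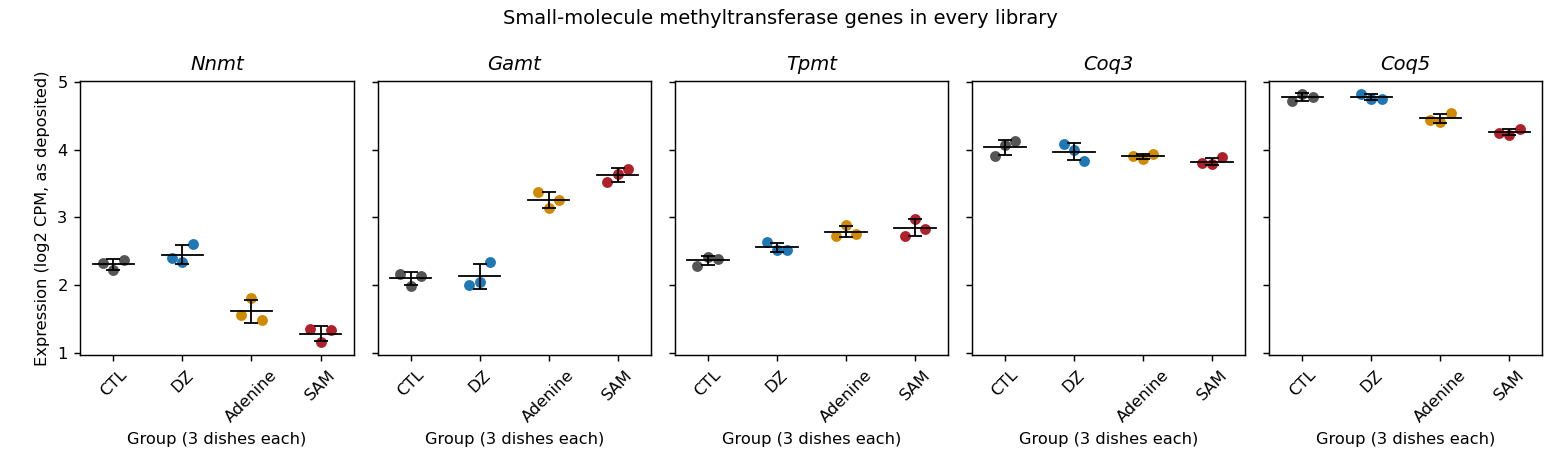
Log2 CPM (vertical axis) of the 5 members in each of the 12 libraries (points), by group (horizontal axis), with the group mean as a line. The Gamt points of Adenine and SAM lie above all CTL and DZ points, those of Nnmt and Coq5 lie below them, and the Coq3 points lie within 3.79 to 4.13 throughout.

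Compared per kilobase of the canonical transcript, the order of the levels in CTL was Coq5 (11.2 CPM per kb ± 0.416, SD, n = 3), Coq3 (6.07 ± 0.464), Nnmt (4.68 ± 0.253), Tpmt (1.56 ± 0.0735) and Gamt (0.844 ± 0.0580). On these transcript lengths no neighbours in that order lay within each other's spread. Under SAM, Coq5 (7.77 CPM per kb ± 0.244, SD, n = 3) and Coq3 (5.23 ± 0.203) remained on top, followed by Gamt (2.46 ± 0.166), Nnmt (2.28 ± 0.172) and Tpmt (2.19 ± 0.193), and these last members were within each other's spread. Under adenine the order below Coq3 was Nnmt (2.89 CPM per kb ± 0.357, SD, n = 3), Tpmt (2.11 ± 0.128) and Gamt (1.90 ± 0.155). The order depends on the transcript taken as the length of each gene. With the shortest coding form annotated, the CTL levels were 63.2 CPM per kb for Coq3, 33.9 for Coq5, 5.40 for Nnmt, 4.89 for Tpmt and 4.77 for Gamt, and with the longest form they were 6.07, 10.5, 2.23, 1.09 and 0.836.

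Nnmt (ENSMUSG00000032271, nicotinamide N-methyltransferase) lies on the minus strand of chromosome 9 from 48448913 to 48518959 (GRCm39), with a canonical transcript of 3 exons and 1048 bases. Its log2 CPM was 2.32, 2.22 and 2.37 in CTL replicates 1 to 3 and 2.40, 2.34 and 2.61 in DZ. It was 1.55, 1.80 and 1.48 in Adenine and 1.35, 1.15 and 1.33 in SAM. All 6 libraries of Adenine and SAM lay below all CTL and DZ libraries, and the SAM libraries lay below the Adenine libraries. Nnmt fell by 0.69 on the log2 scale under adenine (SE 0.115, limma adjusted p = 6.30e-05) and by 1.03 under SAM (SE 0.115, adjusted p = 7.41e-07). The difference between SAM and Adenine was -0.33 (95% CI -0.58 to -0.088, limma adjusted p = 0.0228), short of the threshold of 0.01. Under DZ the log2 difference from CTL was 0.14 (SE 0.115, limma adjusted p = 0.296), and DZ libraries exceeded Adenine libraries by 0.84 (adjusted p = 8.94e-06) and SAM libraries by 1.17 (adjusted p = 1.65e-07).

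Around Nnmt stand the genes that make, use and rebuild NAD. Of 18 listed genes of nicotinamide and NAD metabolism, 12 were in the table. Under adenine 5 of these rose and 2 fell (median log2 fold change 0.099, against -0.0030 over all genes), where 61.6% of all genes passed the test. Under SAM 6 rose and 3 fell (median 0.20, against -0.015 over all genes), where 69.3% of all genes passed. The medians rest on genes of low level, as with a mean log2 CPM of at least 3 they turned to -0.064 under adenine and -0.042 under SAM, with 4 higher and 2 lower, and 3 and 3, of 9 genes. After centring each library on its median, the adenine counts were 4 and 3. Under DZ 4 rose and 1 fell, where 45.9% of all genes passed, and without CTL replicate 2 only 3 were called. Nampt, the rate-limiting enzyme of NAD salvage from nicotinamide, fell by 0.62 on the log2 scale under adenine (SE 0.0347, limma adjusted p = 2.35e-10) and by 0.50 under SAM (SE 0.0347, adjusted p = 2.43e-09), and rose by 0.39 under DZ (adjusted p = 1.96e-07). Nmnat2, which joins nicotinamide mononucleotide to ATP to give NAD, rose by 1.84 under adenine (SE 0.123, limma adjusted p = 2.19e-09), by 1.64 under SAM (adjusted p = 6.22e-09) and by 0.51 under DZ (adjusted p = 0.00227). The DZ call for Nmnat2 was lost without CTL replicate 2 (log2 fold change 0.44, limma adjusted p = 0.0126) and without DZ replicate 2 (0.38, adjusted p = 0.0141). With only the 2 groups compared in the model it was lost too (limma adjusted p = 0.0134). Parp1, which consumes NAD to build poly(ADP-ribose) at DNA breaks, rose by 0.44 under adenine (limma adjusted p = 1.29e-07) and by 0.58 under SAM (adjusted p = 3.27e-09).

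Gamt (ENSMUSG00000020150, guanidinoacetate N-methyltransferase) lies on the minus strand of chromosome 10 from 80089960 to 80096860 (GRCm39), with a canonical transcript of 6 exons. Its log2 CPM was 2.17, 1.98 and 2.14 in CTL replicates 1 to 3 and 2.00, 2.05 and 2.34 in DZ. It was 3.38, 3.14 and 3.26 in Adenine and 3.53, 3.64 and 3.72 in SAM. The CTL and DZ libraries overlapped, all Adenine libraries lay above both, and all SAM libraries lay above those of Adenine. Gamt rose by 1.16 on the log2 scale under adenine (SE 0.103, limma adjusted p = 6.51e-08) and by 1.53 under SAM (SE 0.103, adjusted p = 1.67e-09), a larger absolute change than 93.1% and 94.9% of all genes in those comparisons. SAM exceeded Adenine by 0.37 (SE 0.103, limma adjusted p = 0.00698). That call was lost when any of 4 libraries was left out, with 0.31 (limma adjusted p = 0.0383) without Adenine replicate 2, 0.37 (adjusted p = 0.0197) without Adenine replicate 3, 0.36 (adjusted p = 0.0216) without SAM replicate 2 and 0.32 (adjusted p = 0.0305) without SAM replicate 3. Under DZ the log2 difference from CTL was 0.036 (SE 0.103, limma adjusted p = 0.787).

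Exons of Gamt share 1382 of their 5546 bases (24.9%) with exons of Ndufs7, a subunit of respiratory complex I on the opposite strand. The library kit marks strand, but the strand setting of the counting is not given in the sources used here, so reads in that stretch may belong to either gene. This overlap and those of Tpmt and Coq5 below are taken from GENCODE vM39, whereas the authors counted with vM27. Ndufs7 had a mean log2 CPM of 6.22 in CTL and moved in the other direction from Gamt, by -0.32 under adenine (limma adjusted p = 1.05e-04) and -0.18 under SAM (adjusted p = 0.00941). Under SAM the Ndufs7 call was lost with plain read totals (-0.055, limma adjusted p = 0.388) and after quantile normalization (-0.18, adjusted p = 0.0108). It was also lost with no variance trend (limma adjusted p = 0.0233) and with only the 2 groups compared in the model (adjusted p = 0.0256). The same held when CTL replicate 1 or 3, or SAM replicate 1 or 2, was left out (limma adjusted p between 0.0345 and 0.0523).

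Of 7 other listed genes of creatine synthesis, uptake and storage, 1 was in the table. Slc6a8, the creatine transporter of the plasma membrane, fell by 0.65 on the log2 scale under adenine (SE 0.0269, limma adjusted p = 7.81e-12), by 0.54 under SAM (SE 0.0269, adjusted p = 4.42e-11) and by 0.19 under DZ (adjusted p = 3.19e-05). Gamt and Slc6a8 thus moved in opposite directions under adenine and SAM.

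Tpmt (ENSMUSG00000021376, thiopurine S-methyltransferase) lies on the minus strand of chromosome 13 from 47175958 to 47198213 (GRCm39), with a canonical transcript of 9 exons and 3265 bases. Its log2 CPM was 2.29, 2.42 and 2.38 in CTL replicates 1 to 3 and 2.63, 2.52 and 2.51 in DZ. It was 2.72, 2.89 and 2.76 in Adenine and 2.73, 2.98 and 2.83 in SAM. Every treated library lay above every CTL library, and the Adenine and SAM libraries overlapped. Tpmt rose by 0.43 on the log2 scale under adenine (SE 0.0884, limma adjusted p = 4.82e-04), or 1.34-fold, and by 0.48 under SAM (SE 0.0884, adjusted p = 1.34e-04), or 1.40-fold. SAM and Adenine differed by 0.056 (95% CI -0.13 to 0.24, limma adjusted p = 0.616). Under DZ the log2 difference from CTL was 0.19 (95% CI 0.0039 to 0.38, limma adjusted p = 0.0741). The DZ mean lay 0.29 below that of SAM (limma adjusted p = 0.00754), a call lost in 8 of 18 alternatives. Among these were median centring (-0.27) and quantile normalization (-0.13). Others were leaving out DZ replicate 2 (-0.27) or 3 (-0.27) or SAM replicate 2 (-0.22) or 3 (-0.30). Between DZ and Adenine the difference of -0.23 did not pass the test (limma adjusted p = 0.0263).

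Exons of Tpmt share 601 of 7426 bases (8.09%) with those of Kdm1b, a histone demethylase on the opposite strand. Kdm1b had a mean log2 CPM of 4.86 in CTL and rose by 0.38 on the log2 scale under DZ (limma adjusted p = 7.67e-06). It fell by 0.35 under SAM (limma adjusted p = 6.27e-06), and its value under adenine was -0.10 (adjusted p = 0.0754). The adenine value passed the threshold after quantile normalization (-0.17, limma adjusted p = 0.00706).

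Of 10 other listed genes of thiopurine handling, 8 were in the table. Under both adenine and SAM 2 were higher and 3 lower (medians -0.14 and -0.010), beside 61.6% and 69.3% of all genes called. The median under SAM turned to 0.11 with plain read totals, where that of all genes was also 0.11. It turned to 0.0038 without SAM replicate 3, to 0.0063 without CTL replicate 2 and to 0.017 with a mean log2 CPM of at least 3. The split moved with the scaling, to 1 higher and 5 lower under adenine after median centring and to 3 higher and 2 lower under SAM with plain read totals. Under DZ 2 were higher and 2 lower, beside 45.9% of all genes called. Abcc4, an exporter of nucleotide analogs, fell by 1.89 on the log2 scale under adenine (SE 0.0488, limma adjusted p = 6.48e-14) and by 3.06 under SAM (SE 0.0488, adjusted p = 1.31e-16). Slc29a1, a nucleoside importer, rose by 0.79 under adenine (limma adjusted p = 7.06e-11) and by 0.71 under SAM (adjusted p = 1.59e-10). Impdh2, an enzyme of guanine nucleotide synthesis, fell by 0.93 under DZ (limma adjusted p = 3.08e-09) and did not pass the test against CTL in the other treatments (adjusted p = 0.785 in both).

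Coq5 (ENSMUSG00000041733) lies on the plus strand of chromosome 5 from 115417725 to 115436585 (GRCm39), with a canonical transcript of 7 exons and 2457 bases. Its log2 CPM was 4.72, 4.83 and 4.79 in CTL replicates 1 to 3 and 4.83, 4.76 and 4.76 in DZ. It was 4.45, 4.42 and 4.54 in Adenine and 4.25, 4.22 and 4.31 in SAM. The 3 levels were separate, with CTL and DZ highest and overlapping, Adenine below them and SAM lowest. Coq5 fell by 0.31 on the log2 scale under adenine (SE 0.0514, limma adjusted p = 5.96e-05), or 1.24-fold, and by 0.52 under SAM (SE 0.0514, adjusted p = 1.63e-07), or 1.44-fold. SAM lay 0.21 below Adenine (limma adjusted p = 0.00278), a call that was lost with plain read totals (-0.15, adjusted p = 0.0217) and without Adenine replicate 3 (-0.17), SAM replicate 1 (-0.20) or SAM replicate 2 (-0.19). Under DZ the log2 difference from CTL was -0.00028 (95% CI -0.11 to 0.11, limma adjusted p = 0.997).

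Exons of Coq5 share 1417 of 5274 bases (26.9%) with those of Dynll1, a dynein light chain gene on the opposite strand. Dynll1 had a mean log2 CPM of 6.90 in CTL and rose by 0.33 on the log2 scale under SAM (limma adjusted p = 1.04e-06) and fell by 0.14 under DZ (adjusted p = 0.00463). The DZ call was lost with no variance trend (limma adjusted p = 0.0144), with plain read totals (-0.12) and after quantile normalization (-0.15). It was also lost without CTL replicate 1 or 3 or DZ replicate 1 or 2. The Dynll1 value under adenine, 0.045 (limma adjusted p = 0.304), turned to -0.0064 after median centring.

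Coq3 (ENSMUSG00000028247) lies on the plus strand of chromosome 4 from 21879624 to 21913961 (GRCm39), with a canonical transcript of 7 exons and 2704 bases. Its log2 CPM was 3.91, 4.07 and 4.13 in CTL replicates 1 to 3 and 4.08, 4.004 and 3.83 in DZ. It was 3.90, 3.87 and 3.94 in Adenine and 3.80, 3.79 and 3.89 in SAM. The SAM libraries lay below every CTL library, by little, and the other groups overlapped with CTL. The log2 difference from CTL was -0.065 under DZ (limma adjusted p = 0.462) and -0.14 under adenine (95% CI -0.29 to 0.021, adjusted p = 0.113). Under SAM it was -0.21 (95% CI -0.37 to -0.056, limma adjusted p = 0.0155). The SAM value passed the threshold after median centring (-0.25), after quantile normalization (-0.32) and without CTL replicate 1 (-0.28). The adenine value passed it after quantile normalization (-0.24, limma adjusted p = 0.00974).

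Beside Coq3 and Coq5, 13 of 14 other listed genes of coenzyme Q synthesis were in the table. Under adenine 2 of them rose and 7 fell (median log2 fold change -0.16), beside 61.6% of all genes called, with 2 and 4 when plain read totals were used. Under SAM 3 were higher and 5 lower (median 0.066), beside 69.3% of all genes called, with 4 and 4 under plain read totals and 3 and 6 without SAM replicate 3. That median turned to -0.036 after quantile normalization and to -0.31 with a mean log2 CPM of at least 3, where 1 was higher and 5 lower of 9 genes. Under DZ 5 were higher and 2 lower (median 0.18), beside 45.9% of all genes called. Coq2, the enzyme that attaches the isoprenoid tail, fell by 0.20 on the log2 scale under adenine (SE 0.0427, limma adjusted p = 7.19e-04) and by 0.59 under SAM (SE 0.0427, adjusted p = 3.96e-09). With plain read totals the Coq2 call under adenine was lost (-0.14, limma adjusted p = 0.0117). Coq8b, an atypical kinase of the pathway, fell by 0.69 under adenine (limma adjusted p = 3.75e-07), by 0.73 under SAM (adjusted p = 1.30e-07) and by 0.60 under DZ (adjusted p = 3.78e-06). Coq10a, a protein that binds coenzyme Q, fell by 0.69 under adenine (limma adjusted p = 2.02e-08), by 0.50 under SAM (adjusted p = 7.04e-07) and by 0.36 under DZ (adjusted p = 5.50e-05).

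**Figure D2:**
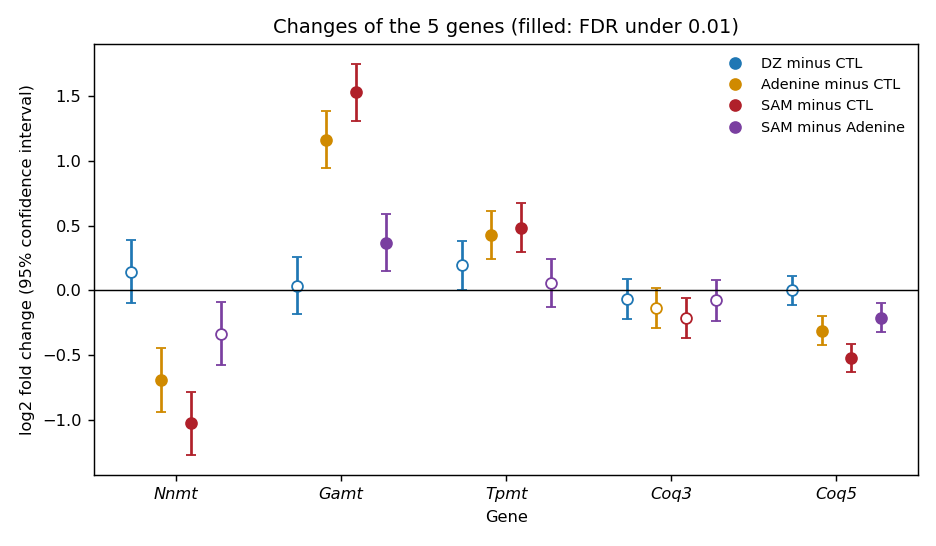
Log2 fold change (vertical axis) of each member (horizontal axis) for DZ, Adenine and SAM minus CTL and for SAM minus Adenine, with bars for the 95% confidence interval of limma and filled points for an FDR under 0.01. Gamt and Tpmt lie above 0 and Nnmt and Coq5 below 0 under adenine and SAM, and no DZ point is filled.

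Across the members, 4 of 5 passed the test under adenine, 2 in each direction, and 61.6% of all genes passed it (30.6% higher and 31% lower). Under SAM the same 4 members passed, again 2 in each direction, and 69.3% of all genes did (33.7% higher and 35.7% lower). Under DZ none of 5 passed by limma, and 45.9% of all genes did (22.6% higher and 23.4% lower). At an unadjusted p under 0.05 the DZ count was 1 (Tpmt), and limma voom on recovered reads also called 0 members. Between SAM and Adenine 2 members passed, Gamt higher and Coq5 lower, beside 42.7% of all genes (20.8% higher and 22% lower in SAM). Between DZ and Adenine 3 passed, Nnmt and Coq5 higher and Gamt lower in DZ, beside 64.3% of all genes (32.1% higher and 32.2% lower). Between DZ and SAM these and Tpmt (lower in DZ) passed, beside 69% of all genes (35% higher and 34% lower). The libraries of the groups compared did not overlap for 1 member under DZ, 4 under adenine and 5 under SAM, each against CTL, beside 65.4%, 74.7% and 77.6% of all genes. They did not overlap for 3 members between SAM and Adenine (61.3% of all genes), and for 4 between DZ and Adenine and 4 between DZ and SAM (77.6% of all genes in both). With so many genes past the test, these counts do not set the members apart from other genes. The median log2 fold change of the 5 members was 0.036, -0.14 and -0.21 under DZ, adenine and SAM, beside -0.0057, -0.0030 and -0.015 over all genes. With plain read totals in place of the authors' scaling, the median of all genes under SAM moved to 0.11, and changes under SAM are relative to such a shift. For a single gene, an exact permutation test of 3 against 3 dishes cannot give a two-sided p below 0.1. The comparisons with CTL share the same control libraries.

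Over the 12 libraries, the log2 CPM of Nnmt ran opposite to that of Gamt (Pearson r = -0.95) and with that of Coq5 (r = 0.934), and Gamt ran opposite to Coq5 (r = -0.964) and with Tpmt (r = 0.847). Coq3 was closest to Coq5 (r = 0.777). These are descriptions over libraries that share 4 groups and their scaling, so a difference between groups in both genes is enough to give such a value.

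Among all other protein-coding genes, those whose values were most like those of Nnmt were Cmss1 (Pearson r = 0.987 over 12 libraries) and Rhoa (r = 0.982), and those most like Gamt were Adamts7 (r = 0.996) and Cd68 (r = 0.994). Ufsp2 (r = 0.958) and Svbp (r = 0.95) were most like Tpmt, Abhd13 (r = 0.868) and Glmn (r = 0.855) most like Coq3, and Bcas3 (r = 0.993) and Wwox (r = 0.989) most like Coq5. Likeness of pattern did not mean likeness of size. Cd68 rose by 1.73 on the log2 scale under adenine and 2.28 under SAM, and Adamts7, which encodes a secreted metalloprotease, by 0.69 and 0.91. Rhoa, a small GTPase of the actin cytoskeleton, fell by 0.18 and 0.28, and Cmss1 by 0.84 and 1.28. The Rhoa call under adenine was lost after quantile normalization (-0.060).

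Few other enzymes of the class were measured. Of 15 other listed small-molecule methyltransferases 4 were in the table, and under adenine 1 was higher and 2 lower (median -0.26), beside 61.6% of all genes called. Under SAM 1 was higher and 3 lower (median -0.51), beside 69.3% of all genes, and under DZ 0 were higher and 1 lower, beside 45.9%. With median centring or quantile normalization the adenine counts were 0 higher and 2 lower, and without CTL replicate 3 or Adenine replicate 3 only 1 was called there. Comtd1 fell by 1.10 on the log2 scale under adenine (SE 0.0927, limma adjusted p = 3.66e-08) and by 0.65 under SAM (adjusted p = 1.04e-05). Carnmt1, which methylates carnosine, fell by 0.37 under SAM (limma adjusted p = 5.28e-07) and rose by 0.14 under adenine (adjusted p = 0.00584). The adenine call was lost after median centring (0.090, limma adjusted p = 0.06) and quantile normalization (0.12, adjusted p = 0.0166). It was also lost without CTL replicate 2 or 3 or Adenine replicate 1 or 3. Tmt1a, a thiol methyltransferase, fell by 1.07 under DZ (limma adjusted p = 7.49e-07) and rose by 0.85 under SAM (adjusted p = 2.78e-06). The remaining gene, named after its values were seen, was Pemt, which makes phosphatidylcholine. Pemt fell by 0.63 under adenine (SE 0.168, a call lost without CTL replicate 3 or Adenine replicate 3) and by 0.84 under SAM (SE 0.168). Its level was low, with a mean log2 CPM of 0.99 in Adenine and 0.77 (SD 0.37) in SAM. Tmt1a stood at 0.65 in DZ. With a log2 CPM of at least 1 required in every library, 2 genes of this list were left, and 0 were called under DZ.

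**Figure D3:**
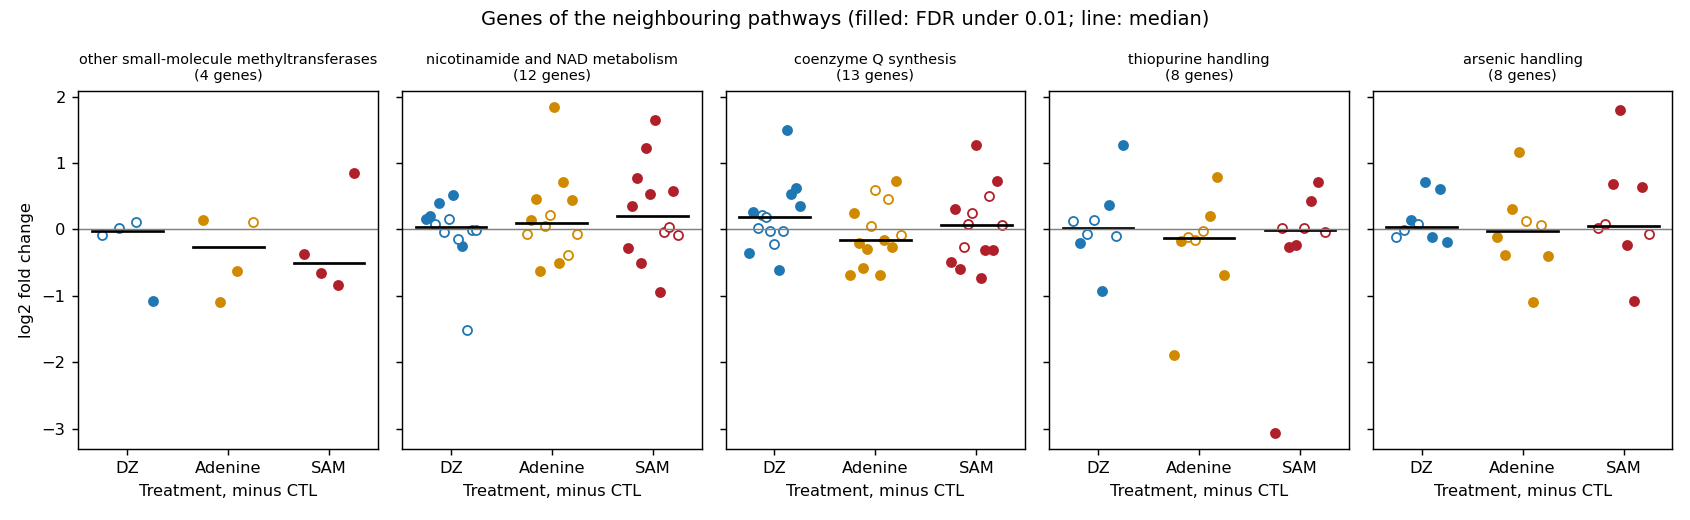
Log2 fold change from CTL (vertical axis) of the listed genes present in the table, a point per gene, by treatment (horizontal axis) in a panel per list for the 5 lists with more than 2 genes in the table (the creatine and histamine lists are not drawn), with the median as a line and filled points for an FDR under 0.01. Every list plotted has filled points on both sides of 0 under adenine and SAM, and Abcc4 under SAM lies lowest, at -3.06.

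The pathways of the absent members were represented in part. Of 10 other genes of histamine synthesis, breakdown and response, 2 were in the table, both monoamine oxidases. Maob rose by 1.45 on the log2 scale under adenine (SE 0.136, limma adjusted p = 1.23e-07) and by 2.36 under SAM (SE 0.136, adjusted p = 2.44e-10). Maoa fell by 0.16 and 0.19 and rose by 0.17 under DZ (limma adjusted p = 4.25e-04), and its falls were lost with plain read totals (-0.10 and -0.067) and after quantile normalization (-0.071 and -0.038). Of 13 other genes of arsenic handling 8 were in the table, and 2 rose and 4 fell under adenine, while 3 rose and 2 fell under SAM, as under DZ, beside 61.6%, 69.3% and 45.9% of all genes called under adenine, SAM and DZ. Without SAM replicate 3 the SAM counts were 3 and 3, and without CTL replicate 1, CTL replicate 2 or DZ replicate 1, or with no variance trend, the DZ counts were 2 and 1. With plain read totals these counts were 3 and 3, 5 and 1, and 3 and 1, so their split depends on the scaling, and after median centring 2 were higher and 3 lower under DZ. Gsto1, a glutathione transferase that reduces methylated arsenic, fell by 1.09 under adenine (SE 0.0309, limma adjusted p = 1.73e-13) and by 1.08 under SAM (SE 0.0309, adjusted p = 7.12e-14). Glrx, a glutaredoxin, rose by 1.17 under adenine (limma adjusted p = 1.36e-10) and by 1.80 under SAM (adjusted p = 5.81e-13). Gclm, a subunit of the enzyme that starts glutathione synthesis, rose by 0.31 (limma adjusted p = 3.84e-06) and 0.68 (adjusted p = 2.84e-10).

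**Figure D4:**
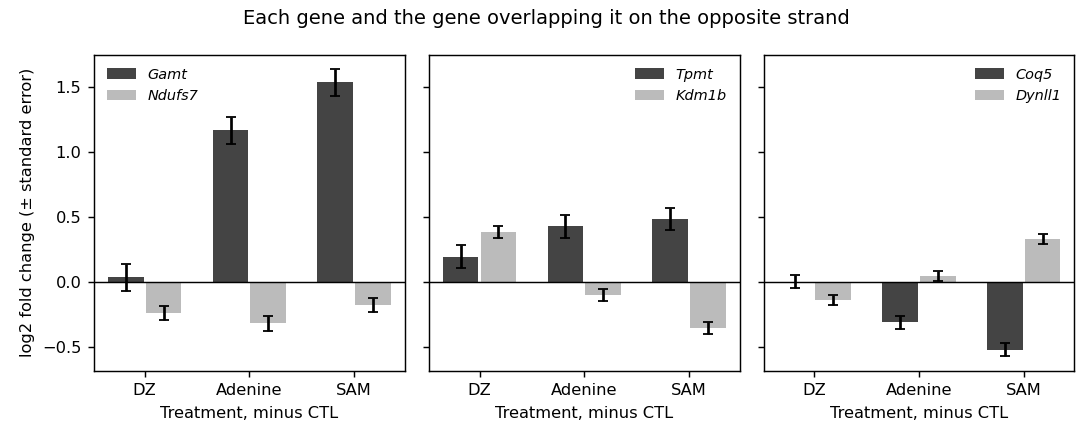
Log2 fold change from CTL (vertical axis) of Gamt, Tpmt and Coq5 (dark bars) beside Ndufs7, Kdm1b and Dynll1 (light bars), the genes on the opposite strand that overlap them, by treatment (horizontal axis), with the standard error of limma as error bars. Under SAM each member and the gene overlapping it lie on opposite sides of 0.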

How the data were processed

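RNA of 12 libraries (3 dishes in each of 4 groups) was analysed. The authors trimmed reads with Trimmomatic, aligned them to GRCm39 with HISAT2 and GENCODE vM27, quantified them with StringTie and used edgeR, and the log2 CPM values they deposited already carry their normalization and a prior count of 2. The strand setting and the method of the scaling factors are not given in the sources used here. All sample columns were used as they stand, with no further filter.

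Each of the 12591 genes was tested with limma 3.58.1 (R 4.3.3) in 1 model of all libraries, with a variance trend, at a Benjamini-Hochberg FDR under 0.01 over all genes. In data simulated for DZ against CTL with 200 of the 12591 genes changed, 90.5% of changes of 0.5 on the log2 scale and 100% of changes of 1 were recovered. Of the calls, 2.69% were false at 0.5 and 0.498% at 1. The simulation gave every gene the same spread beyond counting noise, and 45.9% of genes were called in the data for that comparison. Its shares therefore do not carry over to the members. Whole reads were recovered from the values (100% within 0.01 of a whole read), and these are StringTie estimates.

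The members and lists were chosen with earlier results of these data known. An item of one list is not reported here. Named genes are the members, the 3 genes of each list (fewer in short lists) with the lowest adjusted p against CTL, and the 2 protein-coding genes most correlated with each member. Outside this rule, the genes overlapping a member, Pemt, Fn1 and Vim were named after their values were seen. Symbols, positions and overlaps come from GENCODE vM39 (12575 of 12591 identifiers matched), and promoter windows from RefSeq on GRCm38.p6. No other named copy of a member was in the table. Alternatives covered the variance model, filters, scaling, pseudocount, thresholds, samples in the model, a replicate block, voom, and leaving out each library. Those on genes other than the members were added after seeing the data. Tables and plots used Python 3.11.15, numpy 2.4.6, pandas 2.3.3 and matplotlib 3.10.9.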

Additional observations from a re-analysis of the deposited data

How the results depend on the processing

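Of 552 values of single members under alternatives, 511 kept their direction and their side of the threshold, 23 were lost as calls, 9 passed only under the alternative and 9 changed sign. The calls for Gamt, Nnmt, Tpmt and Coq5 under adenine and SAM against CTL held in every alternative that tested them except a required log2 fold change of 0.5, which drops Tpmt in both and Coq5 under adenine. With that requirement the count of members called was 2 under adenine (Nnmt and Gamt) and 0 between SAM and Adenine. With a mean log2 CPM of at least 3 (10319 genes) only Coq3 and Coq5 were left to test, and the count was 1 in every comparison other than DZ against CTL. Between SAM and Adenine, plain read totals and a model of only those groups each gave 1 (Gamt). With each library left out in turn the counts ran from 0 to 0 for DZ and from 4 to 4 for adenine against CTL, from 4 to 5 for SAM against CTL, from 0 to 2 between SAM and Adenine (0 without Adenine replicate 3 or SAM replicate 2), from 3 to 3 between DZ and Adenine and from 3 to 4 between DZ and SAM. The changes of sign lay at small differences. Under DZ against CTL with a library left out, Gamt ran from -0.070 to 0.10, Coq3 from -0.13 to 0.0042 and Coq5 from -0.029 to 0.025, and Coq5 was 0.025 with plain read totals. Tpmt between SAM and Adenine ran from -0.010 to 0.11. Of 1367 values of other genes, 1273 kept their call and direction, 92 were lost, 1 passed only there and 1 turned (Dynll1 under adenine, -0.0064 after median centring). The causes were not tested.

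With a replicate block the members called were 0, 4, 4, 2, 3 and 4 in the order DZ, adenine and SAM against CTL, SAM against Adenine, DZ against Adenine and DZ against SAM, as without the block. No pairing of the dishes by number was seen. Libraries with the same number, taken as differences from the mean of their group, correlated between -0.142 and 0.181. Of 12 libraries, 4 correlated best with their own number. With 3 dishes per group, these values cannot tell whether dishes were handled in matched sets. Among the members, Nnmt had the fewest reads in Adenine and SAM, and Gamt had the fewest in CTL (187 to 199) and DZ (196 to 238). All p-values rest on 3 dishes per group.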
